A study of Homo sapiens with 7 samples.

Results

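Super-enhancers (SEs) are long clusters of enhancers with a high load of H3K27ac, a histone acetylation found at active enhancers and promoters. The SEs described here lay between genes but near one. They were chosen as the listed SEs linked to a protein-coding gene, with an intergenic midpoint more than 5 kb and less than 100 kb from the transcription start site (TSS) of that gene. They numbered 1333 of 7472 listed SEs (17.8%) over 6 libraries and were linked to 467 genes. When SEs of different libraries that shared at least 1 bp were merged, they formed 291 of 1784 merged regions. A merged region was counted here where more than 50% of its listed SEs met the rule. The choice used position and annotation only, not signal or treatment.

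The study profiled H3K27ac by ChIP-seq in HepG2, an established line from a human liver tumour. Cells were given tunicamycin (TM), which blocks N-linked glycosylation and so causes endoplasmic reticulum stress (ERS), or DMSO, the solvent. Each treatment had 3 libraries, called here TM 1 to TM 3 and DMSO 1 to DMSO 3, and the dose and time of TM for these libraries are not given in the labels. All libraries came from the same unmodified line, and the study says in general that its experiments were repeated, but whether these libraries came from separate cultures is not stated. The p-values therefore measure a spread between libraries that may be technical.

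Enhancers lie on either side of the gene they serve and can act over long distances by looping to its promoter. An intergenic SE is centred outside the transcribed unit, although its body can extend over a promoter, and the nearest gene is a convention of annotation that may not be the gene they control. In hepatocytes and liver cancer cells, SEs are known to lie at genes of cell identity, secreted proteins and growth control, and ERS is known to activate transcription through the unfolded protein response.

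Each list was cut at its own summed-signal threshold, which was 18282, 26265 and 18884 in TM 1 to TM 3, against 24793, 16747 and 24383 in DMSO 1 to DMSO 3. TM 2 therefore had the highest threshold and also the longest list, with 1507 SEs against 1130 to 1290 in the other 5 libraries, and DMSO 2 had the lowest threshold. A region that a library does not list may still carry H3K27ac below its threshold, and read depth is unknown. More cells with an active region and more acetylation per cell cannot be told apart in these bulk samples. The lists gave only a weak check of the labelled cell type, since 2 of 14 hepatocyte markers were linked to any listed SE (CPS1 in 3 TM and 3 DMSO libraries, FOXA1 in 0 TM and 2 DMSO libraries) and ALB and HNF4A to none. Of other lineages, LUM was linked in 0 TM and 3 DMSO libraries, PDGFRB in 1 TM and 3 DMSO libraries, KRT7 in 1 TM library and PTPRC in 2 TM libraries, and 0 of 4 endothelial markers were linked.

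Promoters of genes whose TSS lay inside an SE, although the midpoint of the SE lay between genes, are shown for 4 genes whose SEs were listed under 1 treatment only. IL6 (chr7:22726950-22727249, plus strand), IRF2BP2 (chr1:234610129-234610428, minus strand) and TRIB3 (chr20:381045-381344, plus strand) had SEs in TM libraries only, and TOB1 (chr17:50867929-50868228, minus strand) in DMSO libraries only. Each sequence is taken from RefSeq (GRCh38.p14) and runs from 250 bases before to 50 bases after the gene's start, on the gene's strand. Capitals mark matches to 6 motifs searched on both strands: the cyclic AMP response element TGACGTCA, the unfolded protein response element TGACGTGG, the AP-1 motif TGANTCA, the C/EBP-ATF motif TGATGCAA, the C/EBP motif TTNNGCAA and the kappaB motif GGGANTTTC.
IL6: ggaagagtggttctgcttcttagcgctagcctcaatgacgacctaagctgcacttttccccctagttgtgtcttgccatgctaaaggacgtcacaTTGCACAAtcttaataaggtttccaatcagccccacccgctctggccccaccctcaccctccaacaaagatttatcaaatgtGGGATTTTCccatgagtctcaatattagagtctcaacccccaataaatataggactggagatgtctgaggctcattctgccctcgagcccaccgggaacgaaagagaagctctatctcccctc
IRF2BP2: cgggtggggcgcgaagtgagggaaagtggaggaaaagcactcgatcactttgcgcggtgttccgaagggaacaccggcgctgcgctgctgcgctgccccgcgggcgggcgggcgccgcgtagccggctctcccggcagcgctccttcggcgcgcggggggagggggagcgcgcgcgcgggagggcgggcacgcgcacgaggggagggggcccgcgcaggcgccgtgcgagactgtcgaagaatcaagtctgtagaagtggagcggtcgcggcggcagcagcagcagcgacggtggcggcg
TRIB3: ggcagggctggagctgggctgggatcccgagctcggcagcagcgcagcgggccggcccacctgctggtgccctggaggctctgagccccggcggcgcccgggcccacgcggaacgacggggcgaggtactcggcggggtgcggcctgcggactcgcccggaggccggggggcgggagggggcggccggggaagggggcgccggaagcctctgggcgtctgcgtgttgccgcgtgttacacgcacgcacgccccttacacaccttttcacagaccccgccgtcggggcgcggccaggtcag
TOB1: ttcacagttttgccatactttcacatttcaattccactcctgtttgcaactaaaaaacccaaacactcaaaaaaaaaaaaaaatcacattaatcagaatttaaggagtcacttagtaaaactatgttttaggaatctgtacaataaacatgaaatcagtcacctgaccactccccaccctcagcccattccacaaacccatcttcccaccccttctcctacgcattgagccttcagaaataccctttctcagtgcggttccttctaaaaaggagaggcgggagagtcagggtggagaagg
The IL6 promoter held 1 C/EBP match, TTGCACAA, from 155 to 148 bases before the start, and 1 kappaB match, GGGATTTTC, from 73 to 65 bases before it. The letters of no motif were found in the IRF2BP2, TRIB3 and TOB1 windows, of which the first pair are rich in G and C (74.3% and 77.0%) and TOB1 is not (41.3%). Among 35116 RefSeq promoter windows of this length, 3673 (10.5%) held the C/EBP motif, 1.28% the kappaB motif, 7.71% the AP-1 motif, 1.85% the cyclic AMP response element, 0.866% the C/EBP-ATF motif and 0.729% the unfolded protein response element. The C/EBP and C/EBP-ATF motifs can overlap.

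The first comparison asked whether these SEs changed in number and size under TM. The number of SEs was 212, 254 and 231 in TM 1 to TM 3, against 207, 232 and 197 in DMSO 1 to DMSO 3. The groups overlapped (exact permutation test, two-sided, p = 0.3), and the SEs formed 18.0 ± 1.02% of the TM lists and 17.8 ± 0.682% of the DMSO lists (SD, n = 3 each, exact permutation p = 0.6). Size did separate the treatments. The median length was 41.1, 43.1 and 38.9 kb in TM 1 to TM 3, against 63.3, 49.9 and 68.0 kb in DMSO 1 to DMSO 3, so that every TM library lay below every DMSO library. The mean difference of the log2 medians was -0.55 (exact permutation p = 0.1, the smallest that 3 against 3 libraries can give, so no such comparison can pass 0.05). Their summed extent was 10.9 ± 1.45 Mb in TM, against 14.5 ± 0.882 Mb in DMSO (exact permutation p = 0.1).

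The SEs of the TM libraries also joined fewer peaks and had a higher density. The median SE joined 8.5, 8 and 7 H3K27ac peaks in TM 1 to TM 3, against 15, 13 and 16 in DMSO 1 to DMSO 3 (log2 difference -0.90, exact permutation p = 0.1). SEs of fewer than 4 peaks made up 7.08%, 9.06% and 15.6% of the TM SEs and 1.45%, 0.431% and 0.508% of the DMSO SEs (exact permutation p = 0.1). The median density, that is the deposited signal per bp, was 0.807, 1.10 and 0.873 in TM 1 to TM 3, against 0.685, 0.584 and 0.696 in DMSO 1 to DMSO 3 (log2 difference 0.49, exact permutation p = 0.1). The median summed signal of an SE overlapped between the groups, with 34053 ± 6251 in TM, against 36938 ± 8841 in DMSO (exact permutation p = 0.9). The deposited scale is not known to be comparable between libraries, and TM 2, with the highest density, and DMSO 2, with the lowest, stood apart from the rest.

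The other SEs of the lists were shorter in TM as well. Among all other SEs the median length was 40.8, 44.2 and 37.9 kb in TM 1 to TM 3, against 60.9, 51.1 and 65.3 kb in DMSO 1 to DMSO 3. The shift of the intergenic SEs differed from that of the others by -0.02 on the log2 scale for length (exact permutation p = 0.6) and by 0.02 for density (exact permutation p = 0.7). Both differences lay within the spread of the libraries. Adjusted over the 10 comparisons of TM with DMSO of this kind, a p of 0.1 became 0.25.

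**Figure D1:**
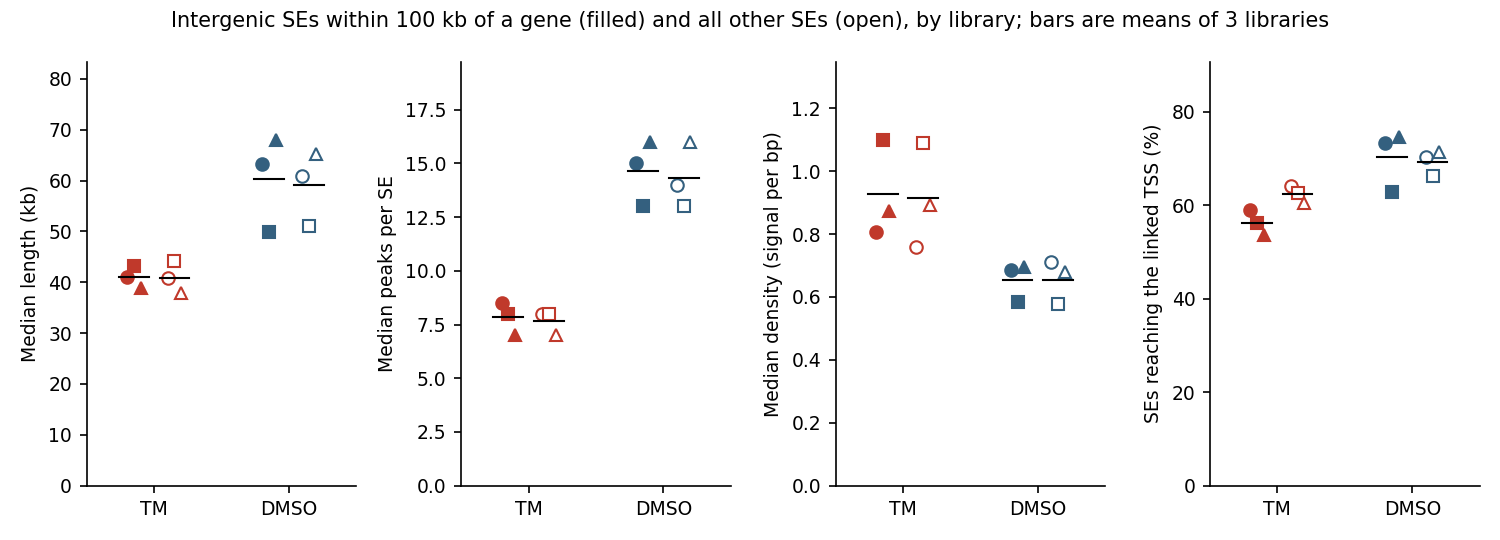
Medians of length (kb), peaks per SE and density (signal per bp), and the share of SEs that reach the linked TSS (%), with 1 point per library. Filled points are intergenic SEs within 100 kb of a gene, open points all other SEs, circles, squares and triangles replicates 1 to 3, and bars the mean of 3 libraries. TM libraries lie between 38.9 and 43.1 kb and DMSO libraries between 49.9 and 68.0 kb for the intergenic SEs.

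The second comparison asked how the SEs lay relative to their genes. The distance from the midpoint to the linked TSS did not separate the treatments, with a median of 21.5, 22.4 and 23.0 kb in TM 1 to TM 3, against 21.2, 23.0 and 21.8 kb in DMSO 1 to DMSO 3 (two-sided exact permutation p = 0.8). What separated them was how often the SE extended as far as the TSS, that is, whether its own half-length covered the distance. This held for 59.0%, 56.3% and 53.7% of the SEs in TM 1 to TM 3, against 73.4%, 62.9% and 74.6% in DMSO 1 to DMSO 3, a mean difference of -14.0 percentage points (exact permutation p = 0.1). No TM library reached the lowest DMSO library. Among all other SEs, which include those within 5 kb of the TSS that reach it at almost any length, the share was 64.1%, 62.6% and 60.6% in TM 1 to TM 3, against 70.4%, 66.4% and 71.4% in DMSO 1 to DMSO 3, and whether the 2 differences differ was not tested.

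Reach was also compared by distance, and whether its difference between treatments differs by distance was not tested. Between 5 and 10 kb nearly all SEs reached the TSS, with 99.3 ± 1.23% in TM, against 99.2 ± 1.31% in DMSO (exact permutation p = 1). At 25 to 50 kb the share was 23.4%, 24.1% and 19.2% in TM 1 to TM 3, against 57.7%, 37.7% and 62.5% in DMSO 1 to DMSO 3 (two-sided exact permutation p = 0.1). At 50 to 100 kb it was 4.22 ± 1.74% in TM, against 14.4 ± 7.25% in DMSO (exact permutation p = 0.1). Lengths at 25 to 50 kb were 36.6 ± 3.48 kb in TM, against 64.9 ± 12.2 kb in DMSO (exact permutation p = 0.1). The 72 comparisons by side and distance bin had a smallest adjusted p of 0.15. Reach is computed from distance and length and is no separate measurement.

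Most midpoints lay upstream of the linked TSS, in 79.2%, 77.6% and 79.7% of the SEs of TM 1 to TM 3, against 78.7%, 81.5% and 78.7% of those of DMSO 1 to DMSO 3 (exact permutation p = 0.6). This share is set in part by the rule, since a midpoint downstream of the TSS counts as intergenic only past the end of the gene. Over all distances together, the sides differed in median length, and in opposite ways under each treatment. Upstream SEs had a median length of 42.4, 44.0 and 39.0 kb in TM 1 to TM 3, against 62.1, 49.0 and 63.9 kb in DMSO 1 to DMSO 3. Downstream SEs, of which each library had only 42 to 57, had medians of 37.1, 40.1 and 36.1 kb in TM 1 to TM 3, against 71.8, 58.0 and 75.5 kb in DMSO 1 to DMSO 3. Upstream SEs were the longer ones in each TM library (log2 upstream over downstream 0.19, 0.13 and 0.11) and the shorter ones in each DMSO library (-0.21, -0.25 and -0.24). The log2 ratio differed between the treatments by 0.38 (exact permutation p = 0.1), and over all 6 libraries the sides did not differ beyond the spread between libraries (mean log2 ratio -0.04, exact sign-flip test, two-sided, p = 0.625). With at least 4 peaks per SE that mean was -0.13 (exact sign-flip p = 0.0938), and the treatments were not compared there. The order in TM also varied with distance. At 25 to 50 kb downstream SEs were the longer ones in TM 1 to TM 3 (44.0, 56.4 and 46.2 kb, against 37.5, 31.1 and 31.7 kb upstream). At 50 to 100 kb upstream SEs were the longer ones in each TM library.

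Reach is given for each side, and whether its difference between treatments differs by side was not tested. Downstream SEs reached the TSS in 40.9%, 43.9% and 36.2% of cases in TM 1 to TM 3, against in 72.7%, 60.5% and 69.0% in DMSO 1 to DMSO 3. Upstream SEs did so in 63.7%, 59.9% and 58.2% of cases in TM 1 to TM 3, against in 73.6%, 63.5% and 76.1% in DMSO 1 to DMSO 3. Of the downstream SEs, 36.4%, 29.8% and 36.2% in TM 1 to TM 3 lay at 50 to 100 kb, against 18.2%, 20.9% and 26.2% in DMSO 1 to DMSO 3 (two-sided exact permutation p = 0.1). For peaks and density the sides differed by less than the spread between libraries (mean log2 upstream over downstream -0.06 and -0.02, exact sign-flip p = 0.562 and 0.531).

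**Figure D2:**
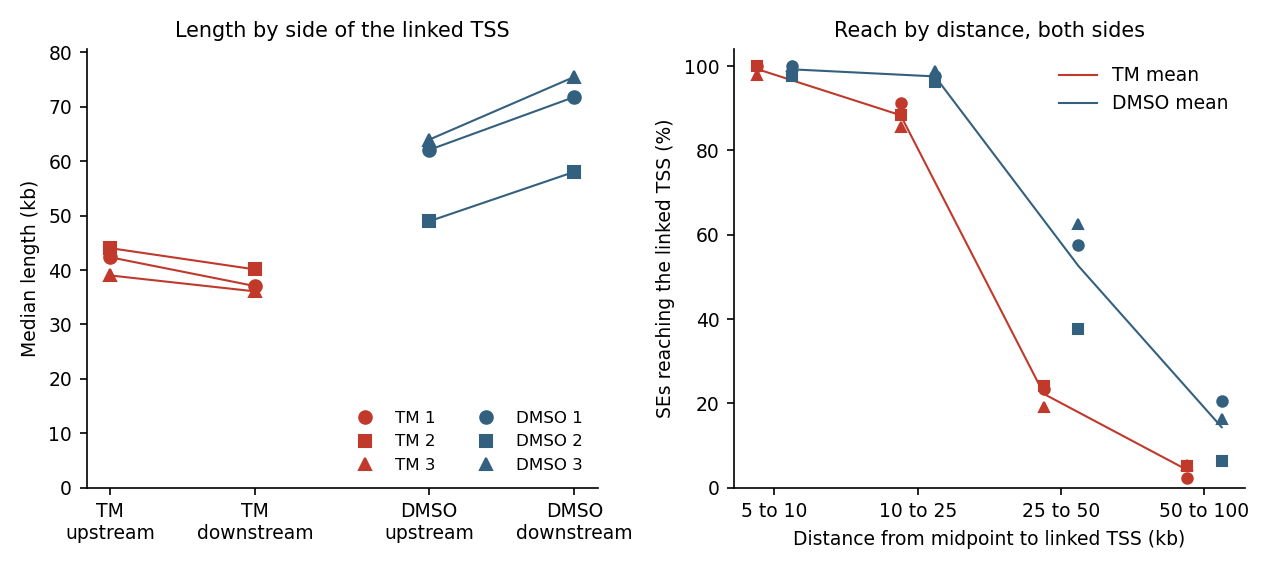
Left, median length (kb) of SEs upstream and downstream of the linked TSS, with 1 line per library. Right, share of SEs that reach the linked TSS (%) by distance of the midpoint (kb), with 1 point per library and lines through the means of 3 libraries. Lines on the left fall towards the downstream side in the 3 TM libraries and rise in the 3 DMSO libraries, and on the right the treatments are farthest apart at 25 to 50 kb, with 22.3% in TM and 52.6% in DMSO.

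The third comparison set these SEs against the classes most like them, within each library. The 2854 intronic SEs of protein-coding genes, with midpoints over 5 kb from the TSS, were of similar build. The intergenic SEs had a mean log2 ratio to them of -0.05 for length (exact sign-flip p = 0.125), -0.06 for peaks (exact sign-flip p = 0.25) and 0.10 for density, higher in 5 of 6 libraries (exact sign-flip p = 0.0625). Against the 235 gene-desert SEs, 100 kb or farther from the linked TSS, the intergenic SEs were longer in 6 of 6 libraries, with log2 ratios of 0.06, 0.76 and 0.29 in TM 1 to TM 3, against 0.08, 0.14 and 0.01 in DMSO 1 to DMSO 3 (mean 0.22, exact sign-flip p = 0.031, the smallest that 6 libraries allow). They held more peaks (mean log2 ratio 0.31) and were less dense (-0.22), again in 6 of 6 libraries (exact sign-flip p = 0.031 each). Adjusted over the 9 comparisons of this kind, these 3 p-values became 0.0938 and did not pass 0.05. The 6 libraries list many of the same regions, so the p-values describe the spread over libraries and not over regions. Each library held only 31 to 55 gene-desert SEs. Without TM 2 the length ratio fell to 0.12, and without SEs of fewer than 4 peaks it was 0.04 (exact sign-flip p = 0.0938). Their part in the difference was not tested otherwise.

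A larger share of the midpoints of the intergenic SEs than of the intronic SEs lay in repeats in every library, at p-values that did not pass 0.05 once adjusted. Long terminal repeats, the remnants of endogenous retroviruses, held the midpoint in 10.8%, 13.8% and 13.0% of the intergenic SEs of TM 1 to TM 3, against 12.6%, 10.3% and 12.2% of those of DMSO 1 to DMSO 3. In intronic SEs the share was 4.35%, 5.19% and 3.91% in TM 1 to TM 3, against 6.40%, 3.01% and 4.57% in DMSO 1 to DMSO 3, lower in every library (exact sign-flip p = 0.031). Gene-desert SEs were nearer, with 9.73 ± 2.52%, against 12.1 ± 1.30% in the intergenic SEs (SD over 6 libraries, exact sign-flip p = 0.125). Short interspersed elements held 21.8 ± 1.77% of the midpoints, against 18.6 ± 1.74% in intronic SEs and 12.6 ± 4.59% in gene-desert SEs (SD over 6 libraries, exact sign-flip p = 0.031 for each comparison). Adjusted over the 10 repeat comparisons, the smallest p was 0.0625. The midpoint is a single position of a long region, and it says nothing of where in the SE the acetylation lay.

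The fourth comparison asked which intergenic regions were listed under 1 treatment only. TM-only regions, listed by 3 of 3 TM and 0 of 3 DMSO libraries, numbered 31 of 291 (10.7%), where 7.57% of all 1784 merged regions were TM-only. DMSO-only regions numbered 17 of 291 (5.84%), where 5.44% of all merged regions were DMSO-only. Regions listed in all 6 libraries numbered 107, and the other 136 were listed in part of the libraries, 62 of the 291 in a single library. The TM-only regions included those at IL6, CXCL2 and TRIB3, and the DMSO-only regions those at LIPC, TM4SF18 and LUM. Their mean length per region had a median of 32.3 kb in the TM-only and 59.0 kb in the DMSO-only regions, and their mean density a median of 0.996 in the TM-only and 0.580 in the DMSO-only regions. Downstream midpoints made up 9 of the 31 TM-only and 3 of the 17 DMSO-only regions, and the SE reached its TSS in at least 1 library in 13 of the 31 and 11 of the 17. Of the 107 regions of all 6 libraries, 18 were downstream and 88 reached the TSS. Of the 136 listed in part, 28 were downstream and 81 reached it. An unlisted region has no value, so no fold change can be given. In 11 of the 31 TM-only regions the strongest SE of every TM library was above the highest DMSO threshold (24793), and in 5 of the 17 DMSO-only regions that of every DMSO library was above the highest TM threshold (26265). Without TM 2 the DMSO-only regions numbered 26 of 274, where 150 of all 1625 merged regions were DMSO-only. With every list cut at the highest of the 6 thresholds (26265), 10 TM-only and 6 DMSO-only regions were left of 263. Of all 1600 merged regions, 47 were then TM-only and 42 DMSO-only.

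The TM-only region with the highest signal lay at IL6, which encodes an inflammatory cytokine of the acute-phase response (chr7:22735692-22771875, coordinates as deposited, which are not on GRCh38 although the submitters' notes name hg38). Its summed signal was 40388, 59175 and 40797 in TM 1 to TM 3, over 35.5, 36.0 and 29.7 kb. The midpoint lay 12.9, 13.1 and 9.74 kb upstream of the TSS, and in each TM library the SE extended over the TSS, whose promoter is shown above. CXCL2, a chemokine that attracts neutrophils, had a TM-only SE (chr4:74961135-75001364) with summed signals of 26516, 53891 and 31355 in TM 1 to TM 3, which also reached the TSS in all 3. Each of these values was above every DMSO threshold.

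TRIB3 and IRF2BP2 were also among the 8 strongest. At TRIB3, a pseudokinase induced by ERS, the TM-only region (chr20:327760-397497) had summed signals of 37195, 44103 and 49070 in TM 1 to TM 3. Its midpoint was intergenic, 14.9 and 15.1 kb upstream, in TM 1 and TM 2, while the longer SE of TM 3 (69.2 kb, against 35.9 and 36.9 kb) did not meet the rule. IRF2BP2, a transcriptional corepressor, had summed signals of 34183, 55391 and 41789 in TM 1 to TM 3 (chr1:234734141-234768132), and met the rule in TM 2 and TM 3.

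Others of the strongest TM-only regions lay at L1TD1, an RNA-binding protein of pluripotent cells (chr1:62663182-62712214), ANXA1, a phospholipid-binding protein that limits inflammation (chr9:75732218-75772487), and ABI3BP, an extracellular matrix protein (chr3:100728048-100762576). Their summed signals in TM 1 to TM 3 were 38164, 55684 and 42434 at L1TD1, 21000, 54160 and 30539 at ANXA1 and 24834, 49651 and 30452 at ABI3BP. ANXA1 in TM 1 was below the highest DMSO threshold. The SE reached the TSS in 3 libraries at ANXA1 and in 0 at L1TD1 and ABI3BP, whose midpoints lay a median of 27.2 kb downstream and 31.5 kb upstream. Among the weaker TM-only regions were those of SMAD7, an inhibitor of TGF-beta signalling (19648, 37614 and 19173 in TM 1 to TM 3, a median of 38.9 kb upstream), and INSIG1, which holds sterol-regulated transcription factors in the endoplasmic reticulum (23695, 28847 and 20949, a median of 89.3 kb upstream). SMAD7 was also linked to SEs of other classes in all DMSO libraries. Neither intergenic SE reached its TSS, and at both the TM 1 and TM 3 values lay below the highest DMSO threshold. TM 2 gave the highest value in all of the TM-only regions named except TRIB3.

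The strongest DMSO-only regions lay at LYRM9 (chr17:26207477-26317200) and GPR141, an orphan receptor (chr7:37672708-37772954). Their summed signals in DMSO 1 to DMSO 3 were 51987, 39860 and 69169 at LYRM9 and 54575, 45617 and 53857 at GPR141, all above every TM threshold. The LYRM9 SE reached the TSS in 1 library and the GPR141 SE in 0. At SLC35B4, a nucleotide sugar transporter of the Golgi (chr7:133964294-134062340), the values were 54542, 22542 and 56882 in DMSO 1 to DMSO 3. At TOB1, an antiproliferative protein (chr17:48921201-49028610), they were 50866, 24867 and 50364, over 107, 61.3 and 107 kb, and the SE covered the TSS, whose promoter is shown above, in each library. In both, DMSO 2 had the shorter SE and was the library below the highest TM threshold.

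The other 4 of the strongest 8 included liver and matrix genes. LIPC, the hepatic lipase of the blood lipoproteins, had a DMSO-only SE a median of 68.2 kb upstream (chr15:58611584-58702067), with 40355, 22295 and 32867 in DMSO 1 to DMSO 3. At CP, the copper-carrying plasma protein ceruloplasmin, and its neighbour TM4SF18 the values were 27936, 44433 and 40810 (chr3:148928552-149035117). The midpoint lay 41.9, 42.7 and 52.7 kb downstream of the TM4SF18 TSS in DMSO 1 to DMSO 3, and DMSO 2 also listed an SE 8.63 kb upstream of the CP TSS. LUM, a matrix proteoglycan of connective tissue, had 35269, 25687 and 36983 in DMSO 1 to DMSO 3 (chr12:91487630-91537345) and was reached by its SE in all 3. LUM is also one of the stellate cell and fibroblast markers listed above. PDE8B, a cyclic AMP phosphodiesterase, had 30401, 24927 and 41862 (chr5:76440324-76539026). In each of the DMSO-only regions named, except CP and TM4SF18, DMSO 2 was the lowest library. Weaker ones lay at SOCS3, which dampens cytokine receptors (30881, 26616 and 29557 in DMSO 1 to DMSO 3), and ID3, an inhibitor of basic helix-loop-helix factors (32794, 26703 and 30596), and both were above every TM threshold.

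**Figure D3:**
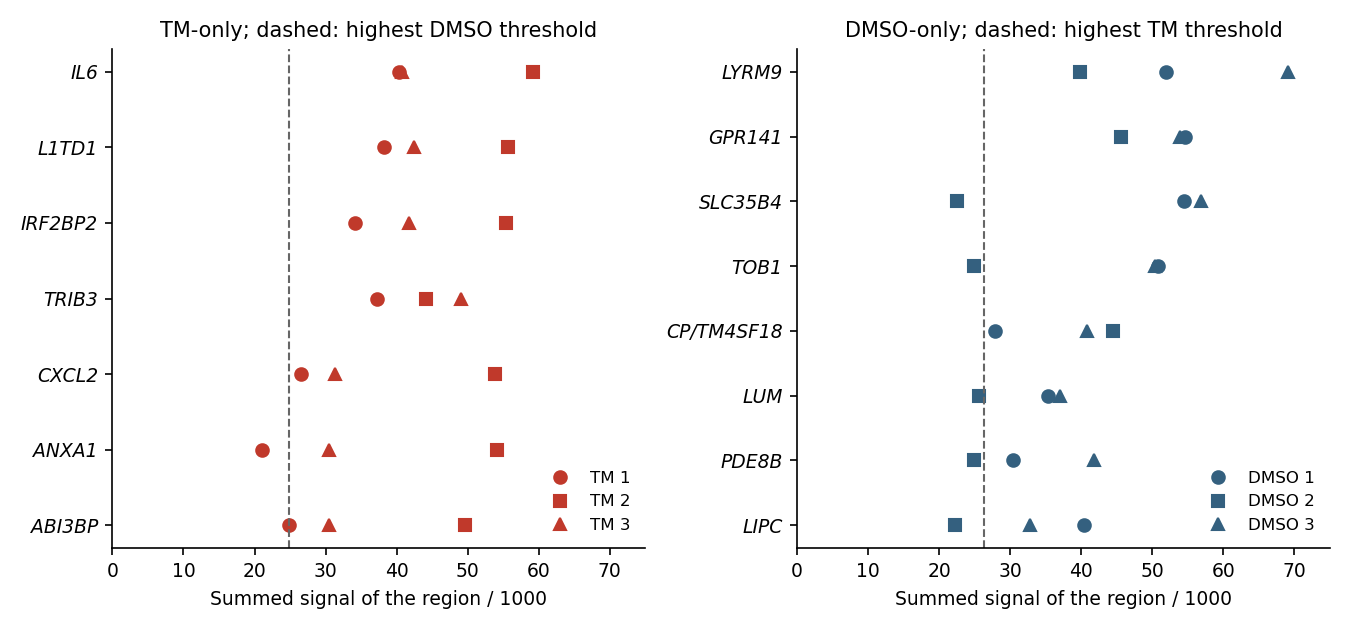
Summed signal (divided by 1000) of 7 TM-only (left) and 8 DMSO-only (right) intergenic regions, all among the 8 of their kind with the highest mean signal, with 1 point per library. The dashed line is the highest threshold of the libraries that do not list the region, 24793 in DMSO on the left panel and 26265 in TM on the right. IL6, with 40388 to 59175 in TM, lies wholly above the line, while ANXA1, SLC35B4, TOB1, LUM, PDE8B and LIPC each have 1 library below it.

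The fifth comparison concerned the 107 intergenic regions listed in all 6 libraries, for which density, total signal and length could be tested. From each log2 density the library's median over the 670 regions shared by all 6 lists was subtracted, a median that was 0.38 higher on the log2 scale in TM than in DMSO. Changes in density are therefore relative to that shift. Density was higher in TM at 8 of 107 regions (7.48%, against 6.72% of all 670) and lower at 13 (12.1%, against 10.6%), by limma with Benjamini-Hochberg adjusted p under 0.05. The median change was -0.04 over the intergenic regions and -0.03 over all 670. Without centring, 18 regions were called higher and 0 lower (134 of all 670 were called), and 2 of the 13 lower ones (ZDHHC17 and DRAM1) had a positive change. The call count was 12 of 119 without TM 3, 9 of 114 without DMSO 1, 10 of 118 without DMSO 2 and 12 of 122 without DMSO 3. Over all shared regions it was 79 of 698, 52 of 689, 59 of 688 and 57 of 700 in these runs, against 116 of 670 in the main run.

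The 4 highest density changes came with a negative length change. They lay at ANKH, a transporter involved in pyrophosphate export, CD55, a membrane protein that blocks complement, EPS15, an endocytic adaptor, and ZNF217, a zinc finger transcription factor. At EPS15 (chr1:51999796-52042121) the density was 1.33, 2.40 and 1.39 in TM 1 to TM 3, against 0.730, 0.648 and 0.768 in DMSO 1 to DMSO 3, over 17.0, 15.9 and 17.4 kb in TM and 42.2, 42.0 and 41.9 kb in DMSO. Its centred log2 density change was 0.82 (SE 0.15, limma adjusted p = 0.0094) and its log2 length change -1.33 (limma adjusted p = 0.0006), while its total signal changed by -0.12 (limma adjusted p = 0.378). At ZNF217 (chr20:52193102-52307195) the density was 1.56, 3.29 and 1.94 in TM 1 to TM 3, against 0.979, 0.749 and 1.16 in DMSO 1 to DMSO 3, a log2 change of 0.80 (SE 0.19, limma adjusted p = 0.022), with a log2 length change of -0.89 (limma adjusted p = 0.0133). ANKH and CD55 had log2 density changes of 0.89 and 0.88 (limma adjusted p = 0.0215 and 0.018) and log2 length changes of -1.50 and -1.29 that did not pass (limma adjusted p = 0.0717 and 0.0789). TM 2 had longer SEs there (47.3 and 54.9 kb) than TM 1 and TM 3 (18.8 to 29.1 kb).

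The other 4 regions of higher density had no called length change. ZFP36L1 encodes a protein that promotes decay of AU-rich mRNAs, and its upstream SE (chr14:69246291-69292149) reached the TSS in all 6 libraries. The density there was 1.24, 1.46 and 1.34 in TM 1 to TM 3, against 0.822, 0.566 and 0.729 in DMSO 1 to DMSO 3, over 35.8, 45.9 and 38.9 kb in TM and 34.6, 39.3 and 38.8 kb in DMSO. Density rose by 0.57 (SE 0.12, limma adjusted p = 0.0185) and total signal by 1.05 (SE 0.11, limma adjusted p = 0.0013) on the log2 scale. FTH1, the heavy chain of the iron store ferritin, had a density of 1.21, 1.63 and 1.37 in TM 1 to TM 3, against 0.849, 0.728 and 0.849 in DMSO 1 to DMSO 3 (chr11:61714297-61825369, log2 change 0.40, SE 0.11, limma adjusted p = 0.039), and its total signal rose by 0.97 (limma adjusted p = 0.002). MYOT, a protein of the muscle Z disc, rose by 0.55 in density and 0.81 in total signal (limma adjusted p = 0.0314 and 0.004). C5orf67, which RefSeq now lists as a long non-coding RNA, rose by 0.42 in density (limma adjusted p = 0.0455). Density and total signal were both called higher at 4 regions, both called lower at 3 and never called in opposite directions.

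None of the 7 named regions of lower density had a called length change. GNE encodes the enzyme that starts sialic acid synthesis, and its SE (chr9:36248922-36337276) reached the TSS in all 6 libraries. Its density was 0.520, 0.657 and 0.514 in TM 1 to TM 3, against 0.819, 0.671 and 0.840 in DMSO 1 to DMSO 3, lower in each TM library even before centring. The centred log2 change was -0.85 (SE 0.10, limma adjusted p = 0.0025), and the log2 length change -0.13 did not pass (limma adjusted p = 0.477). At NFKBIA, the inhibitor that holds NF-kB in the cytoplasm, the SE lay a median of 30.3 kb downstream (chr14:35760649-35892238). It had a density of 0.433, 0.607 and 0.430 in TM 1 to TM 3, against 0.616, 0.527 and 0.661 in DMSO 1 to DMSO 3, where TM 2 overlapped the DMSO libraries before centring. The centred log2 change was -0.69 (SE 0.10, limma adjusted p = 0.0045), and total signal fell by 0.64 (limma adjusted p = 0.0128). MCTP2, a membrane protein with C2 domains, fell by 0.65 in density and by 0.55 in total signal (limma adjusted p = 0.0094 and 0.0119).

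Density also fell at OPTC, a matrix proteoglycan (-0.70, limma adjusted p = 0.007), SMG9, a factor of nonsense-mediated mRNA decay (-0.58, limma adjusted p = 0.0094), CEP63, a centrosomal protein (-0.48, limma adjusted p = 0.0248), and EPS8L3 (-0.46, limma adjusted p = 0.0465). At CEP63 the deposited densities were 0.765, 1.17 and 0.826 in TM 1 to TM 3, against 1.07, 0.799 and 1.06 in DMSO 1 to DMSO 3. The groups overlapped on that scale, and without centring the log2 change was -0.10 at CEP63 and -0.08 at EPS8L3. The call at these regions thus rests on the centring. The other lower calls, GNE included, depend on it too, since 0 regions were called lower without centring.

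Total signal, centred in the same way, was higher in TM at 18 of 107 regions (16.8%, against 18.7% of all 670) and lower at 13 (12.1%, against 13.7%). Without centring no intergenic region was called on total signal by limma (29 of all 670 were). The call count was 19 of 119 without TM 3 and 17 of 114 without DMSO 1, where 122 of 698 and 124 of 689 shared regions were called. Length was longer in TM at 2 regions, FAM50B and ARPC5 (1.87%, against 0.448%), and shorter at 11 (10.3%, against 11.8%), and 88 of 107 fitted length changes were negative. The median log2 length change was -0.21 over the 107 regions and -0.25 over all 670. Among the 11 were A2M, the protease inhibitor alpha-2-macroglobulin (log2 change -1.75, limma adjusted p = 0.0043), and TRIM33, a ubiquitin ligase (log2 change -1.68, limma adjusted p = 0.0475), both chosen after their values were seen. The count of changed lengths, 13 in all, was the least stable: it was 6 without TM 1, 21 without TM 2, 3 without TM 3, 3 without DMSO 1, 8 without DMSO 2 and 4 without DMSO 3. Over all shared regions the count was 60, 133, 29, 24, 72 and 26 in the same order, against 82 in the main run.

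**Figure D4:**
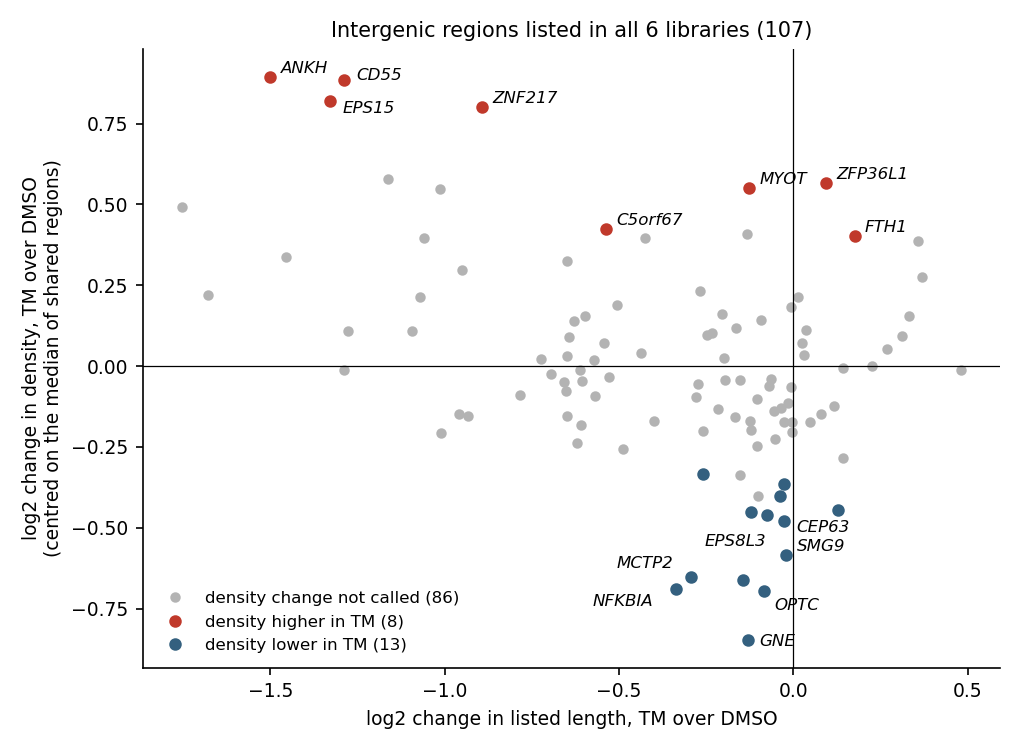
Log2 change in density (vertical axis, centred on the median of the 670 shared regions) against log2 change in listed length (horizontal axis), TM over DMSO, for the 107 intergenic regions listed in all 6 libraries, with 1 point per region. Red points are the 8 regions with higher and blue points the 13 with lower density in TM by limma, and grey points were not called. Red points spread over length changes from -1.50 to 0.18, and the named blue points lie between -0.34 and -0.02.

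The 6 strongest of the 107 regions by mean summed signal lay at TMSB4X, the actin-binding thymosin beta 4, with FAM9C (chrX:12961735-13163885), at the keratin genes KRT80 and KRT81 with LINC02874 (chr12:52533560-52731472), at F3, the tissue factor that starts coagulation (chr1:94970057-95136853), at GPRIN2 and NPY4R (chr10:46981585-47185147), at ARHGAP28 (chr18:6712758-6844742), and at RNF144B, a ubiquitin ligase (chr6:18293156-18458025). None had a called density change. At TMSB4X and FAM9C the listed length was 110, 125 and 120 kb in TM 1 to TM 3, against 201, 168 and 187 kb in DMSO 1 to DMSO 3 (log2 change -0.65, SE 0.10, limma adjusted p = 0.0196), and the total signal changed by 0.06 (limma adjusted p = 0.378). The keratin region went the other way, with 175, 195 and 137 kb in TM 1 to TM 3, against 119, 121 and 119 kb in DMSO 1 to DMSO 3. Its log2 length change of 0.48 did not pass (limma adjusted p = 0.099), and its total signal rose by 0.86 (SE 0.13, limma adjusted p = 0.0042). The region at GPRIN2 and NPY4R fell by 0.83 in total signal (limma adjusted p = 0.0008) and by 1.01 in length (limma adjusted p = 0.0294).

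Some merged regions held an intergenic SE of this kind under 1 treatment only, although both treatments listed an SE in the region. The class follows the midpoint of each SE. Of the 670 shared regions, 208 held an intergenic SE of this kind in at least 1 library and 64 held no other kind. In 6 regions such an SE was present in all 3 TM and in no DMSO library, and in 7 regions the reverse. At these, a gene linked to such an SE under 1 treatment only lay in or beside a region that both treatments listed. At IER3, an immediate-early gene, the DMSO libraries listed 1 SE of 106, 110 and 109 kb with its midpoint nearest to LINC00243. The TM libraries listed 2 SEs there, of which the one upstream of IER3 measured 47.0, 43.2 and 44.4 kb. At SMAD3, the TGF-beta signal transducer, an SE of 182, 155 and 189 kb in DMSO 1 to DMSO 3 had an intronic midpoint. In TM 1 to TM 3 an intergenic SE of 64.7, 62.8 and 60.2 kb, a median of 10.9 kb upstream, stood beside an intronic one.

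CD36, a fatty acid receptor, CCN1, a matrix-associated growth regulator, STK17A, a kinase linked to apoptosis, and HDAC7, a histone deacetylase, were the other genes of this kind. At CD36 the DMSO libraries listed SEs of 247, 245 and 224 kb linked to SEMA3C, and the TM libraries a separate intergenic SE of 25.3, 48.9 and 26.0 kb. At CCN1 no DMSO 1 SE overlapped the intergenic TM SEs. In the reverse direction were CDC7, EMP1, SMIM2, PAX8, PRDM1, VXN and EEIG1. At PAX8 no TM SE overlapped an intergenic DMSO SE, and other DMSO SEs joined them into the same region. At CDC7, a kinase of DNA replication, the SE measured 37.9, 39.0 and 34.1 kb in TM 1 to TM 3 with an intronic midpoint, and 71.6, 51.4 and 77.5 kb in DMSO 1 to DMSO 3, with an intergenic midpoint. Among the 107 shared intergenic regions, 1 (at B4GALT5 and SLC9A8) was listed as 2 or more SEs in every TM library and as 1 in every DMSO library, where 2.54% of all 670 were, and 1 (at PTCD2 and ZNF366) the reverse, where 0.597% of all were.

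The linked genes were last set against 10 gene lists. Of the 467 genes, 35 (7.49%) were linked to an intergenic SE in all 3 TM and no DMSO library and 27 (5.78%) in the reverse. The counts below are of intergenic SEs alone, and a gene may have had an SE of another class in the other libraries. With SEs of any class counted, 29 of the 35 genes had none in DMSO libraries and 17 of the 27 had none in TM libraries. These counts, and those below, go by the linked gene alone. At CCN1, IER3 and CD36, DMSO SEs linked to other genes lay in the same merged region as the TM SE. At PAX8 the TM SEs of the merged region were linked to PAX8-AS1. Of 20056 protein-coding genes in RefSeq, 461 (2.30%) were linked to an intergenic SE by symbol. Inflammatory and NF-kB signalling had 6 of 32 genes linked: IL6 and CXCL2 in 3 TM and 0 DMSO libraries, SOCS3 in 0 TM and 3 DMSO, NFKBIA in 3 and 3, LIF, a cytokine of the IL6 family, in 3 and 2, and TNFAIP3, an inhibitor of NF-kB, in 0 and 1, or in 0 and 2 with SEs of any class. TGF-beta, BMP and Wnt signalling had 8 of 30 genes linked. SMAD7 and SMAD3 were linked in 3 TM and 0 DMSO libraries, ID3 in 0 and 3, SMAD2 in 0 and 2, TGIF1, a corepressor of SMAD proteins, in 3 and 2, and INHBA, SMAD6 and WNT5A in 0 and 1 each. With SEs of any class, SMAD7, SMAD3, TGIF1, SMAD6 and WNT5A were linked in 3 TM and 3 DMSO libraries, SMAD2 in 2 and 3, and ID3 and INHBA in 0 and 3.

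The unfolded protein response had 2 of 44 genes linked to an intergenic SE, TRIB3 in 2 TM and 0 DMSO libraries and DDIT4 in 1 and 0. The ATF4 amino acid response, with 5 of 22, also held both of these, and GDF15, SLC3A2 and SLC7A11 in 1 TM library each. With SEs of any class, DDIT4 and SLC7A11 were linked in 3 TM and 3 DMSO libraries, TRIB3 and SLC3A2 in 3 TM and 0 DMSO, and GDF15 in 1 and 0. Hepatocyte identity had 3 of 36 linked, in DMSO libraries only, the gluconeogenic enzyme FBP1 and the liver factor FOXA1 in 2 and TM4SF4 in 1. With SEs of any class TM4SF4 was linked in 3 DMSO libraries. Lipid and sterol metabolism had 3 of 29, CD36 and INSIG1 in 3 TM and 0 DMSO libraries and LIPC in 0 and 3.

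The list of bZIP and immediate-early transcription factors, which also held genes of other kinds, had 8 of 37 genes linked. ZFP36L1 was linked in 3 TM and 3 DMSO libraries, IER3 in 3 and 0, IRF2BP2 and MAFK, a small MAF protein, in 2 and 0, DUSP1, a phosphatase of MAP kinases, and IER2 in 2 and 2, FOSL2, an AP-1 subunit, in 2 and 3, and KLF5 in 1 and 3. With SEs of any class, IRF2BP2 was linked in 3 TM and 0 DMSO libraries, IER2 in 2 and 3 and KLF5 in 3 and 3. EMT and extracellular matrix had 6 of 34, among them ITGB1, an integrin chain, and NEDD9, a focal adhesion scaffold, in 3 and 3, CCN1 in 3 TM and 0 DMSO, PLAU, a plasminogen activator, in 2 and 0, and FSTL1 in 0 and 1. With SEs of any class, PLAU was linked in 2 TM and 1 DMSO libraries and FSTL1 in 3 and 3. At ITGB1 the SE measured 32.2, 79.5 and 32.0 kb in TM 1 to TM 3, against 77.9, 70.0 and 80.9 kb in DMSO 1 to DMSO 3, and it reached the TSS in TM 2 and in all DMSO libraries. At NEDD9 the SE had a length of 30.9, 31.7 and 32.3 kb in TM 1 to TM 3, against 29.4, 31.8 and 59.0 kb in DMSO 1 to DMSO 3. Its centred log2 total signal rose by 0.35 (SE 0.09, limma adjusted p = 0.0272). The deposited signals overlapped, with 57787, 108169 and 69851 in TM 1 to TM 3, against 62906, 47379 and 71363 in DMSO 1 to DMSO 3. The region was not called without centring. Cell cycle and oncogenes had 2 of 28, EGFR in 2 TM and 1 DMSO libraries and MYC in 1 and 0, or with SEs of any class EGFR in 3 and 3 and MYC in 2 and 0. Hypoxia and angiogenesis had 2 of 19, NDRG1 in 3 and 3 and VEGFA in 0 and 2.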

How the data were processed

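The authors deposited, for each of the 6 H3K27ac libraries, a table of SEs with a summed signal per region. The names of the regions show MACS peaks that were stitched, and the columns have HOMER's layout, in which the annotation and the distance to the TSS (bp) refer to the midpoint. The submitters' processing notes name CASAVA 1.4 and the builds hg38 and mm9. The deposited positions conflict with hg38 (GRCh38), since the IL6 TSS that they imply is not at the RefSeq position. Not given in the sources used here are other tool versions, the stitching distance, any library-size scaling, and the build on which positions were reported. The study calls the SE signals of its TM-treated cells input-normalized, without saying how, and whether that holds for every deposited table was not checked. The deposited signal equals a density in steps of 0.0001 per bp times the length, so density was taken as signal over length, and shorter regions need a higher density to pass a list's threshold. An input library from control cells was not analysed here. Groups came from the treatment in the labels.

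Members were rows with gene type protein-coding, annotation intergenic and a distance over 5000 and under 100000 bp. RefSeq (GRCh38.p14) matched all 1333 by Entrez ID and gave symbols and promoters only. It lists 22 of these rows as long non-coding RNA genes. SEs of different libraries were merged with an overlap of 1 bp. Library summaries were compared by exact permutation tests of 3 against 3, and classes within libraries by exact sign-flip tests over 6 libraries, with Benjamini-Hochberg adjustment in families of 10 and 9. Shared regions were fitted with limma 3.58.1 (trend, R 4.3.3) over all 670, with log2 density and total signal centred on library medians and length not centred. The script was tested on simulated data. Other steps used Python 3.11.15 with scipy 1.17.1, numpy 2.4.6, pandas 2.3.3 and matplotlib 3.10.9.

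Named in the text are, by mean signal, the top 8 TM-only and the top 8 DMSO-only regions, the 8 highest and 8 lowest called density changes, the 6 strongest shared regions and list genes linked in at least 2 libraries. Other names were chosen after their values were seen. A few regions and genes that the rule takes are not reported here. Promoters are those of the named genes, in order of signal, whose TSS was reached in every library that lists the region, up to 4. That reading of the rule, and the members and the 10 gene lists, were chosen with earlier results of these data known. Alternatives were a 50 kb window, a common threshold, at least 4 peaks per SE, other member and overlap rules, other scalings, a replicate block and leaving out each library.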

Additional observations from a re-analysis of the deposited data

Results flagged for a closer look

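Upstream and downstream SEs differed in length in opposite directions under the treatments. The log2 ratio of upstream over downstream median length was 0.19, 0.13 and 0.11 in TM 1 to TM 3, against -0.21, -0.25 and -0.24 in DMSO 1 to DMSO 3, a difference of 0.38 (exact permutation p = 0.1, the smallest that 3 against 3 libraries can give). It was the only one of 9 such contrasts in which every TM library and every DMSO library lay on opposite sides of 0. The downstream medians rest on 42 to 57 SEs per library. At 25 to 50 kb downstream SEs were the longer ones in each TM library as well. With at least 4 peaks per SE the mean log2 ratio over the 6 libraries was -0.13, and the treatments were not compared there.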

How the results depend on the processing

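The median length, peaks, density and reach kept their direction under every alternative run, with leave-one-out differences of -0.68 to -0.45, -0.99 to -0.83, 0.36 to 0.58 (log2) and -17.7 to -11.9 percentage points. Results that lay within the spread between libraries changed sign. The number of SEs per library differed by -2.67 with at least 4 peaks. The share of the list differed by -0.430 percentage points with the 50 kb window and by -0.118 to 0.847 without single libraries. The median distance differed by -0.636 kb with the 50 kb window, -2.89 kb with the common threshold (every list cut at the highest of the 6 thresholds), -0.511 kb with at least 4 peaks and -0.0755 to 0.822 kb without single libraries. The share upstream differed by 1.59, 0.168 and 0.347 percentage points with the 50 kb window, the common threshold and at least 4 peaks, and by -1.29 to 0.107 without single libraries. The upstream over downstream density was 0.0062 (log2) with the common threshold and -0.046 to 0.0046 without single libraries. The difference of the TM shift from that of other SEs was 0.068 for length and -0.026 for density with the 50 kb window, and for density -0.0092 to 0.051 without single libraries. Against intronic SEs the density ratio was 0.10 with the common threshold (exact sign-flip p = 0.031). Against gene-desert SEs, length was 0.20 with the common threshold, 0.036 with at least 4 peaks and 0.12 to 0.27 without single libraries. Peaks were 0.29, 0.13 and 0.24 to 0.35, and density without single libraries -0.25 to -0.17. With 5 libraries the sign-flip test cannot go below 0.0625.

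The common threshold left 10 TM-only and 6 DMSO-only regions of 263, where 47 and 42 of all 1600 merged regions were. Leaving out single libraries gave 27 to 37 and 17 to 26, against 142 to 203 and 102 to 150 over all merged regions. Without single libraries, 9 to 22 densities, 17 to 43 total signals and 3 to 21 lengths were called changed among 114 to 126 regions. Over all shared regions they numbered 52 to 144, 122 to 251 and 24 to 133, against 116, 217 and 82 in the main run. When any listed SE made a region a member, 39, 64 and 33 of 208 were called. Total signal was 0 without centring (29 of all 670 regions), 14 with the common threshold and 20 when every listed SE had to be a member, and length 7 with median centring, 5 with the common threshold and 6 when every listed SE had to be a member. With the replicate number as a block, 15 densities, 20 total signals and 1 length were called (95, 135 and 6 of all 670). Same-numbered libraries, however, did not deviate together (correlations of -0.008, -0.047 and -0.026), so they share only a number. The causes of these shifts were not tested. Depth is unknown, and 3 libraries per group limit every exact test.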

Other observations

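The shortest intergenic SE was listed in TM 3 downstream of EBLN2 (chr3:73159854-73160341, as deposited). It spanned 487 bp, held 1 peak and had a density of 40.6 per bp, and no other intergenic SE was shorter than 6.09 kb. The next shortest lay downstream of CYB5D2 in TM 2, with 1 peak and a density of 5.28. FAM50B was the one gene linked to 2 intergenic SEs in each of the 6 libraries.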
